A study of Homo sapiens with 20 samples.

Results

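Messenger RNA of 10 genes of bone morphogenetic protein (BMP) signalling was followed through erythroid differentiation of HUDEP-2 cells. The genes were the BMP receptors BMPR1A and BMPR2, the signalling SMADs SMAD1, SMAD5 and SMAD4, the inhibitory SMADs SMAD6 and SMAD7, and the target genes ID1, ID2 and ID3. They were taken by gene symbol from the deposited transcript tables and are 10 of the 46425 genes those tables hold. They are annotated with 34 transcripts, of which 32 had counts. SMAD6 was picked because it appeared by day 8, so its difference between day 0 and day 8 is described and not tested.

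BMPs bind a complex of type I receptors, such as BMPR1A, and type II receptors, such as BMPR2, on the cell surface. The type I receptor then phosphorylates the receptor-activated SMADs, SMAD1 and SMAD5, which join the shared partner SMAD4 and enter the nucleus to act on target genes. SMAD6 and SMAD7 are inhibitory SMADs, themselves induced by the pathway, that limit signalling at the receptors and at SMAD4. ID1, ID2 and ID3 are classical targets whose proteins hold basic helix-loop-helix factors away from DNA, and BMP4 signalling through this pathway is best known in red cell formation from stress erythropoiesis.

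HUDEP-2 is an immortalized human erythroid progenitor line from umbilical cord blood, here with the WT genotype, so all libraries stem from 1 line. Before differentiation (day 0) the cells grew in StemSpan SFEM with EPO, SCF and doxycycline, which keeps the immortalizing genes switched on. The study's methods add dexamethasone, a glucocorticoid, to the expansion medium alone, while the labels do not list it. For days 1 to 8 and 12 they were kept in IMDM with holo-transferrin, AB human serum, heparin, insulin, L-glutamine, EPO, SCF and doxycycline, from which SCF was left out on day 6 and doxycycline on day 8. Each of the 10 days had 2 libraries. Those of days 0 and 8 are described as biological replicates in the study. For the other days it is not given in the sources used here whether the libraries came from separate cultures, so there p-values measure only the spread between these libraries, which may be technical. Day 0 stands for proerythroblasts in the study, days 4 to 6 for basophilic, day 8 for polychromatic and day 12 for orthochromatic erythroblasts and reticulocytes. The libraries are called A, from the tables of separate days, and B, from the table that spans all days. In A, days 0 to 6, days 7 and 8, and day 12 each came from a table of their own. Within library A, a change between these spans of days is thus also a change of table, and day and table cannot be told apart there. The letter does not mark a replicate number.

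Library totals were 52131713 to 70358198 counts, so a count of 0 allows up to 3 counts, or 0.0426 to 0.0575 CPM (the count scaled to the library total), for counting error only. Libraries of the same day differed by more than sampling noise in 69.2% to 82.4% of genes. Ribosomal RNA genes took 18.5% and 17.5% of counts in library A of days 7 and 8, and 1.03% to 4.08% in the other 18 libraries. Globin genes took 28.2% and 33.7% on day 12. In TPM, a level scaled for transcript length and library, the summed 13 erythroid markers were at 33174 and 33489 before differentiation, 258727 and 304433 on day 8 and 594002 and 627563 on day 12. The 5 mast cell or basophil markers together held 537 and 1018 TPM before differentiation and 0.598 and 3.14 TPM by day 8, and their part in the results was not tested. Summed macrophage markers were 2.01 to 31.9 TPM, megakaryocyte markers 0.140 to 69.8 TPM with PF4, GP1BA and PPBP at 0, endothelial or stromal markers at most 0.204 TPM, and the 4 lymphoid markers were at 0 in all libraries. In these bulk libraries, fewer cells of a type and less RNA per cell cannot be told apart.

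Levels of different genes were compared as TPM. ID2 was the most abundant of the 10 genes at every stage, with 444 ± 46.8 TPM (SD, n = 2) on day 0, 192 ± 26.7 TPM (n = 6) on days 4 to 6, 125 ± 39.2 TPM (n = 2) on day 8 and 220 ± 29.7 TPM (n = 2) on day 12. Its libraries did not overlap those of the next gene at any of these stages. SMAD4 and ID1 came next and overlapped each other at all 4 stages, with 23.1 ± 9.38 TPM for SMAD4 and 18.4 ± 7.35 TPM for ID1 on day 0, and 19.96 ± 5.67 and 32.3 ± 14.6 TPM on day 8. On day 0 they were followed by SMAD1 at 14.3 ± 6.84 TPM, SMAD5 at 12.4 ± 0.636 TPM, BMPR2 at 10.5 ± 3.83 TPM and BMPR1A at 9.41 ± 0.595 TPM, of which each overlapped its neighbour in the order. SMAD7 was at 0.0719 ± 0.0513 TPM on day 0, and SMAD6 and ID3 had no count in either library. By day 8, SMAD5 was at 1.28 ± 0.607 TPM, a level that overlapped ID3 at 1.40 ± 1.77 TPM, and ID3 overlapped SMAD6 at 2.00 ± 1.87 TPM.

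Changes between days were taken from counts, as CPM scaled by the TMM method (normalized CPM), and tested with edgeR's quasi-likelihood test with Benjamini-Hochberg adjustment over all genes. The scale matters most on day 12, and also on day 8. TMM factors were 0.5442 and 0.4642 in the libraries of day 12 and 0.8046 to 1.169 in the others, and the median log2 fold change of all genes from day 8 to day 12 was -0.20 in normalized CPM but -0.68 in log2(TPM + 1). From days 4 to 6 to day 12 it was -0.27 and -0.95. To day 8 it was -0.0066 and -0.44 from day 0, and 0.005 and -0.23 from days 4 to 6. Fold changes to day 12, and some to day 8, are therefore also given from limma on log2(TPM + 1).

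**Figure D1:**
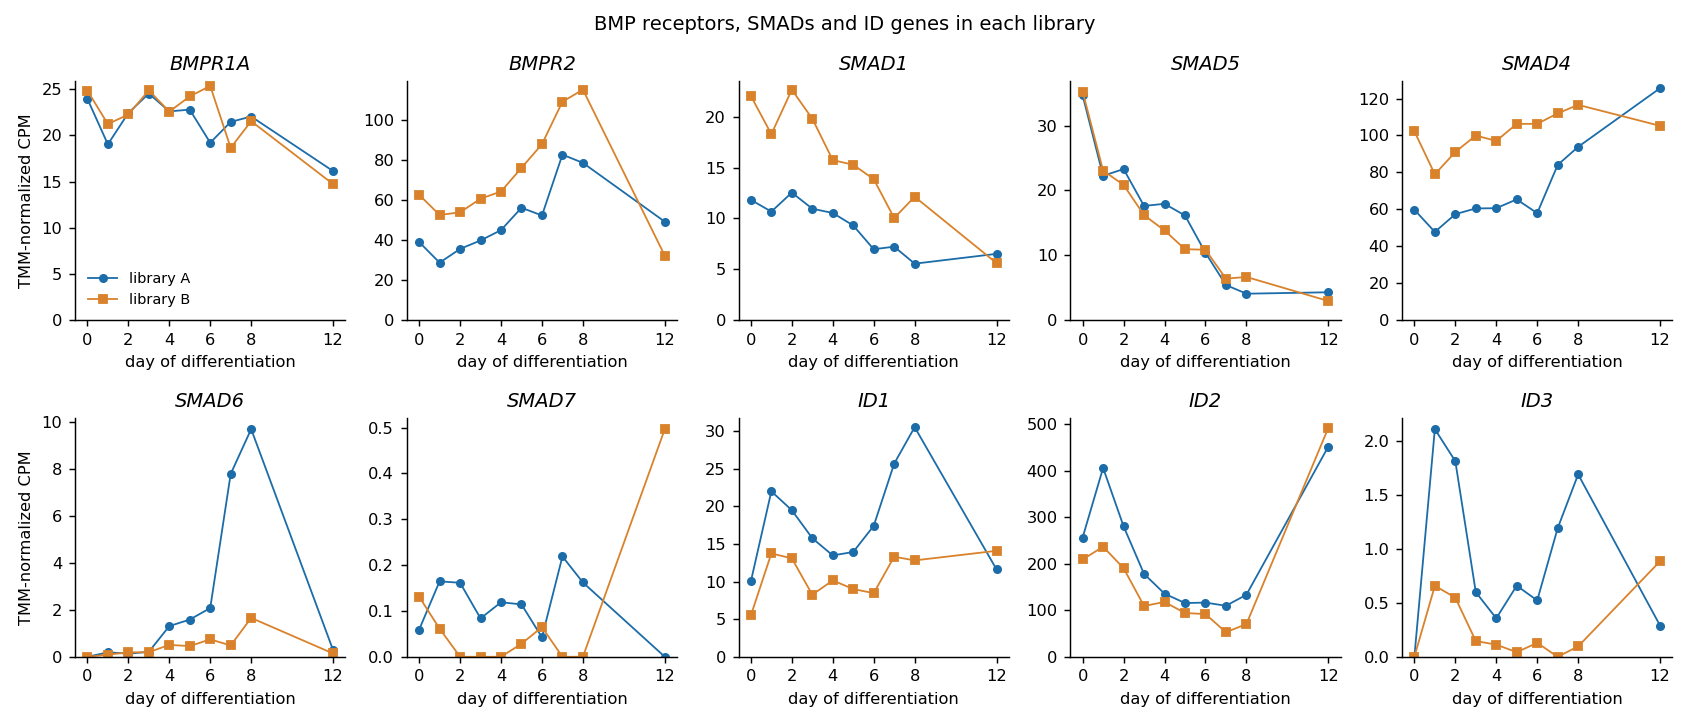
Normalized CPM (counts scaled by library total and TMM factor, linear axes from 0) of the 10 genes against day of differentiation, with library A as circles and library B as squares. SMAD5 descends in both libraries, ID2 is highest on day 12 in both, and SMAD6 reaches 9.71 CPM in library A of day 8 but 1.66 CPM in library B.

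Of the receptors, BMPR1A was lowest on day 12 and BMPR2 was highest on days 7 and 8, in normalized CPM of either library. BMPR1A (gene 657, chromosome 10, 86755786 to 86927969 of hg38) was between 18.6 and 25.3 normalized CPM in all 18 libraries of days 0 to 8. On day 12 it was 16.1 CPM in library A and 14.7 CPM in library B, below every earlier library. It fell from day 8 to day 12 by 0.50 on the log2 scale (SE 0.14, adjusted p = 0.0085), and from days 4 to 6 to day 12 by 0.56 (SE 0.12, adjusted p = 8.3e-04). The first of these calls was lost with upper-quartile normalization (adjusted p = 0.067), with only the days compared in the fit (adjusted p = 0.19) and without library B of day 12 (adjusted p = 0.055). With limma on log2(TPM + 1) these values were -1.42 (adjusted p = 2.1e-05) and -1.86 (adjusted p = 1.1e-07). Its pseudogene copies BMPR1AP1 and BMPR1AP2 had 2 to 27 counts a library, against 415 to 1896 for BMPR1A.

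BMPR2 (gene 659, chromosome 2, 202376310 to 202567751) encodes the type II receptor. In library A it was 39.0 normalized CPM on day 0, 28.7 CPM on day 1, 56.2 CPM on day 5, 82.7 CPM on day 7, 78.6 CPM on day 8 and 49.2 CPM on day 12. In library B it was 62.6, 52.6, 76.1, 109, 115 and 32.2 CPM on the same days. Both libraries were highest on days 7 and 8, and the libraries of day 8 lay above those of day 0. The log2 fold change from day 0 to day 8 was 0.94 (SE 0.31, adjusted p = 0.078) and did not pass the threshold. Of the 12 alternatives, which include the fit without library A of day 8, it passed in 3. They were DESeq2 (adjusted p = 0.018), edgeR's exact test (adjusted p = 0.023) and the set of tables as a block (adjusted p = 0.020). With limma on log2(TPM + 1) it was 0.32 (adjusted p = 0.56). The block, a term for library A or B in the fit, also called the differences from days 1 to 3 to days 4 to 6 (0.50, adjusted p = 0.027) and from days 4 to 6 to day 8 (0.62, adjusted p = 0.024), which were 0.49 (adjusted p = 0.22) and 0.61 (adjusted p = 0.16) without it. It fell from day 8 to day 12 by 1.25 on the log2 scale (SE 0.39, adjusted p = 0.015), a call that was lost without library B of day 8 (adjusted p = 0.11) or of day 12 (adjusted p = 0.13), and that was -2.21 (adjusted p = 6.1e-04) with limma on log2(TPM + 1). Day 12 against days 4 to 6 was -0.64 (SE 0.33, adjusted p = 0.10), against -0.54 (adjusted p = 0.031) with the block, -0.71 (adjusted p = 0.039) with no filter beyond 1 count and -2.04 (adjusted p = 1.4e-04) with limma on log2(TPM + 1). The transcript NM_001204 carried 84.7% of its TPM.

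Of the receptor-activated SMADs, SMAD5 (gene 4090, chromosome 5, 136132845 to 136182734) had the lowest log2 fold change from day 0 to day 8 of the 7 genes tested. Library A held 34.7 normalized CPM on day 0, 22.3 CPM on day 1, 23.3 CPM on day 2, 17.6 CPM on day 3, 17.9 CPM on day 4, 16.1 CPM on day 5, 10.4 CPM on day 6, 5.41 CPM on day 7, 4.07 CPM on day 8 and 4.29 CPM on day 12. Library B held 35.3, 23.1, 20.9, 16.2, 13.8, 10.9, 10.9, 6.39, 6.66 and 2.95 CPM on the same days. All libraries of days 7 to 12 lay below all those of days 0 to 6. SMAD5 fell from day 0 to day 8 by 2.69 on the log2 scale (SE 0.30, adjusted p = 0.0088), with -3.08 within library A and -2.40 within library B. The call held in the 12 alternatives (adjusted p at most 0.0091), which include the fit without library A of day 8. It was lost without library A of day 0, where the log2 fold change was -2.71. It also fell from days 1 to 3 to days 4 to 6 by 0.63 (SE 0.14, adjusted p = 0.017). Leaving out library A of day 2, 3 or 6 or library B of day 4 or 5 put that adjusted p at 0.050 to 0.055. Between days 4 to 6 and day 8 the log2 fold change was -1.30 (SE 0.22, adjusted p = 0.0018), and -0.99 (adjusted p = 0.060) without library A of day 8. Day 12 against days 4 to 6 gave -1.86 (SE 0.23, adjusted p = 7.6e-06), which held in every alternative, with -1.99 from limma on log2(TPM + 1), and with each library left out. From day 8 to day 12 the sets ran apart, with 0.075 within library A and -1.17 within library B. The log2 fold change was -0.57 (SE 0.26, adjusted p = 0.078), and it was called with limma on log2(TPM + 1) (-0.78, adjusted p = 0.0059) and without library A of days 7 and 8 (-0.89, adjusted p = 0.015). The NM_005903 transcript carried 53.3% of SMAD5 TPM over all libraries, but between 0% and 100% in a single library, so its transcripts are not compared here.

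SMAD1 (gene 4086, chromosome 4, 145481306 to 145559176), the partner of SMAD5 at the receptor, had no difference between days that passed in the main fits (without any alternative setting). Some alternatives called a difference, as given below. Library A lay between 5.55 and 12.5 normalized CPM with its highest value on day 2 and its lowest on day 8, and library B between 5.61 and 22.7 CPM with its highest on day 2 and its lowest on day 12. The log2 fold change from day 0 to day 8 was -0.92 (SE 0.49, adjusted p = 0.21), and from days 4 to 6 to day 12 it was -0.97 (SE 0.44, adjusted p = 0.061). Library A was below library B on 9 of the 10 days, and the log2 difference of B from A in a fit with the set of tables as a block was 0.72 (SE 0.11, adjusted p = 2.7e-04). With that block the day 0 to day 8 value was -0.96 (adjusted p = 0.038) and day 12 against days 4 to 6 was -0.87 (adjusted p = 0.0018). The latter also passed with no filter beyond 1 count (-1.05, adjusted p = 0.025), with only the days compared in the fit (-0.94, adjusted p = 0.043) and with limma on log2(TPM + 1) (-2.17, adjusted p = 4.8e-04). Day 12 against day 8 was -0.54 (SE 0.51, adjusted p = 0.38) in normalized CPM and -1.36 (adjusted p = 0.040) with limma on log2(TPM + 1). Over the 10 days, SMAD1 and SMAD5 had a Pearson r of 0.94 within library A and 0.94 within library B on the log2(normalized CPM + 1) scale, as against 0.72 over all 20 libraries.

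SMAD4 (gene 4089, chromosome 18, 51030213 to 51085042), the partner shared by BMP and TGF-beta signalling, was between 47.8 and 126 normalized CPM. Library A was at 59.8 CPM on day 0, 93.9 CPM on day 8 and 126 CPM on day 12, and library B at 102, 117 and 105 CPM. The libraries of day 0 and day 8 overlapped, and the log2 fold change was 0.39 (SE 0.29, adjusted p = 0.36). Day 12 against days 4 to 6 had a log2 fold change of 0.49 (SE 0.32, adjusted p = 0.19) in normalized CPM but -1.25 (adjusted p = 0.0091) with limma on log2(TPM + 1), so the direction turned with the scale. With the set of tables as a block it was called in the positive direction (0.59, adjusted p = 0.0055). Day 12 against day 8 was 0.13 (SE 0.40, adjusted p = 0.81) in normalized CPM and -1.21 (adjusted p = 0.038) with limma on log2(TPM + 1). The TPM values go with medians of -0.95 and -0.68 for all genes.

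SMAD6 (gene 4091, chromosome 15, 66702110 to 66782849) had no count in either library of day 0. In library A it had 15 counts on day 1, 10 on day 2, 15 on day 3, 99 on day 4, 125 on day 5, 147 on day 6, 392 on day 7, 539 on day 8 and 9 on day 12. In library B it had 6, 12, 12, 36, 32, 46, 25, 86 and 4 counts on the same days. Both libraries were highest on day 8. In normalized CPM the libraries of day 8 were at 9.71 and 1.66, and those of day 12 at 0.290 and 0.142. Against the limit of 3 counts in a day 0 library, day 8 was at least 136-fold higher by the mean and at least 39.6-fold higher by the lower library.

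The step between the early and the middle days uses neither day 0 nor day 8, but it lies on the way to the level for which SMAD6 was picked, so its p is not independent of that choice. The 6 libraries of days 1 to 3 lay at 0.0920 to 0.209 normalized CPM and the 6 of days 4 to 6 at 0.456 to 2.08 CPM, without overlap, as in 1.97% of all genes for a higher level. The log2 fold change was 2.70 (SE 0.69, adjusted p = 0.032), with 3.00 within library A and 1.68 within library B. The call was lost, with adjusted p of 0.081 to 0.10, when library A or B of day 1, 2 or 3 or library A of day 4, 5 or 6 was left out, and with limma on log2(TPM + 1) (0.47, adjusted p = 0.35) and log2(TPM + 0.1) (1.62, adjusted p = 0.078). The log2 fold change of day 12 against days 4 to 6 was -2.32 (SE 1.12, adjusted p = 0.081). Of its alternatives, 6 of 10 put the adjusted p under 0.05, the lowest at 0.015, while limma on log2(TPM + 1) gave -0.55 (adjusted p = 0.22).

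SMAD6 was higher in library A than in library B on 8 days. With the set of tables as a block, B was below A by a log2 difference of -1.62 (SE 0.39, adjusted p = 0.0069). Library A of days 7 and 8, where SMAD6 had its highest counts, are also the libraries with 18.5% and 17.5% ribosomal RNA counts, and the part of ribosomal RNA in the SMAD6 level was not tested. Both came from the same table, which holds no other day, and its part was not tested. Of the B libraries, that of day 8 had the highest SMAD6 count (86) and 2.34% ribosomal RNA counts.

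Summed over the libraries, most SMAD6 counts sat on a predicted transcript, but the leading transcript differed between libraries. Of the 1610 counts over the 20 libraries, XM_011521561 took 1034 (64.2%), NM_005585 took 270 (16.8%), the non-coding XR_931827 took 199 (12.4%) and the non-coding NR_027654 took 107 (6.65%). Library A of days 7 and 8 alone held 931 (57.8%) of these counts. XM_011521561 had the highest TPM of the 4 in 11 libraries, on days 4 to 12 other than library B of day 7, whereas NR_027654 led in 6, among them both libraries of days 2 and 3, and was the only transcript above 0 in library B of day 7. XM_011521561 starts at position 66704088, 13 bases past the end of the first of the 4 exons of the full-length transcript in GENCODE v44, in its intron 1. NM_005585, the full-length mRNA, had a level above 0 in 6 A libraries and in no B library. How the authors' counting shares reads among overlapping transcripts was not stated, so these shares are estimates.

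ID1 and ID3 had a Pearson r of 0.87 within library A and 0.61 within library B. For SMAD6 and ID3 it was 0.31 and -0.40, and for SMAD6 and ID1 0.69 and 0.22. The promoters of SMAD6, ID1 and ID3 are shown to give the sequence before the start of these target genes. Each is the 250 bases before the RefSeq start (GRCh38.p14), 5' to 3' on the gene's strand. Capitals mark matches on either strand to GTCTAGAC, the palindromic SMAD-binding element, to GGCGCC, the GC-rich element of BMP SMADs, or to CAGAC, the short SMAD box.
SMAD6 (chr15:66701986-66702235, plus strand): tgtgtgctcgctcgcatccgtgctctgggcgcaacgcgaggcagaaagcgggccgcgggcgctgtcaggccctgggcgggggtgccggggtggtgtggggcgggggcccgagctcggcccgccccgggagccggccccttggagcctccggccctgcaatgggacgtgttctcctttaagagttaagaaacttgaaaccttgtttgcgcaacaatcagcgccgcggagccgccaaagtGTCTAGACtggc
ID1 (chr20:31605039-31605288, plus strand): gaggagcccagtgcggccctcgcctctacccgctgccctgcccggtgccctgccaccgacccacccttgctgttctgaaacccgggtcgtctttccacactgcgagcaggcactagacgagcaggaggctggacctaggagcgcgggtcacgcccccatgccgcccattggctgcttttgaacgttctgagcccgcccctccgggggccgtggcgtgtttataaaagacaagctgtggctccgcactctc
ID3 (chr1:23559502-23559751, minus strand): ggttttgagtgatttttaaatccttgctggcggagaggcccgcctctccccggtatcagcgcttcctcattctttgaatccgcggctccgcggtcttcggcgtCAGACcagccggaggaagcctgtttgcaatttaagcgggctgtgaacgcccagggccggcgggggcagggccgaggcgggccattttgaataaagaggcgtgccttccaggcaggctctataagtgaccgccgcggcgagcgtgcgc
The SMAD6 window ends at the start of NM_005585 and so lies 1852 bases from the start of XM_011521561, while XR_931827 starts 126 bases before NM_005585, inside the window. GTCTAGAC lay 12 to 5 bases before the SMAD6 start and in none of the other windows of the 10 genes. It was found in 0.182% of the 35116 promoters in the RefSeq set, GGCGCC in 16.4% and CAGAC in 38.0%. Among the 10 genes, GGCGCC was in windows of BMPR2, SMAD1 and SMAD4, and CAGAC in windows of BMPR2, SMAD1, SMAD7 and ID3. The erythroid motif AGATAA lay in 9.17% of promoters and among the 10 genes in 1 window of SMAD1. None of the marked matches overlapped another. The ID1 window held none of the 4 motifs. These are matches of letters, and binding was not measured.

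SMAD7 (gene 4092, chromosome 18, 48919853 to 48950711), the inhibitory SMAD that also acts on TGF-beta receptors, stayed near the limit of detection. It had 0 to 14 counts in a library, 0 in 6 of the 20 libraries, and at most 0.123 TPM. Day 0 had 4 and 10 counts, day 8 had 9 and 0, and day 12 had 0 and 14. No fold change is given, because these counts are near the limit of 3, and on day 8 and day 12 the libraries fell on both sides of it. On day 8, SMAD6 thus had 539 and 86 counts where SMAD7 had 9 and 0.

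ID1 (gene 3397, chromosome 20, 31605289 to 31606510) was higher on day 1 than on day 0 in both libraries, but not beyond the adjusted threshold. It was 10.0 normalized CPM on day 0, 22.0 CPM on day 1, 13.5 CPM on day 4, 30.5 CPM on day 8 and 11.6 CPM on day 12 in library A. In library B it was 5.50, 13.7, 10.2, 12.8 and 14.1 CPM on the same days. The log2 fold change from day 0 to day 1 was 1.20 (SE 0.51, unadjusted p = 0.036, adjusted p = 0.49), with 1.13 within library A and 1.32 within library B, and it passed only with the set of tables as a block (1.22, adjusted p = 0.030). For day 8 against day 0 it was 1.496 (SE 0.52, adjusted p = 0.090). Of the 12 alternatives, which include the fit without library A of day 8, that comparison passed in 4. DESeq2 and edgeR's exact test gave adjusted p of 0.015 and 0.031. The block and all 20 libraries in the fit gave 0.020 and 0.039. With limma on log2(TPM + 1) the log2 fold change was 0.75 (adjusted p = 0.21). Leaving out 1 library put it between 0.74 and 1.99, the highest without library B of day 8. Library A of day 8, with the highest ID1 level (30.5 CPM), had 17.5% ribosomal RNA counts, whose part was not tested. Day 8 against days 4 to 6 was 0.85 (SE 0.40, adjusted p = 0.14), and was called with the block (0.78, adjusted p = 0.0097). Leaving out 1 library put this value between 0.085 and 1.33. On day 12 against days 4 to 6 the log2 fold change of ID1 was 0.092 (SE 0.42, adjusted p = 0.86) in normalized CPM and -1.64 (adjusted p = 7.7e-04) with limma on log2(TPM + 1), so its direction also turned with the scale. From day 8 to day 12 it was -0.75 (SE 0.51, adjusted p = 0.23) and -1.91 (adjusted p = 0.0015).

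ID3 (gene 3399, chromosome 1, 23557926 to 23559501) had no count on day 0 in either library. It had 167 and 43 counts on day 1, 135 and 35 on day 2, 43 and 9 on day 3, 27 and 8 on day 4, 52 and 3 on day 5 and 37 and 8 on day 6 in libraries A and B. It then had 60 and 0 counts on day 7, 94 and 5 on day 8 and 9 and 25 on day 12. Both libraries went from 0 to their highest count within the first day in differentiation medium, although in normalized CPM library B was higher on day 12 (0.887) than on day 1 (0.659). Day 1 was at least 33.1-fold above the limit of 3 counts in a day 0 library by the mean and at least 15.7-fold by the lower library. The test gave an unadjusted p of 0.0074 and an adjusted p of 0.28, and it passed with DESeq2 (adjusted p = 0.0041) and with the set of tables as a block (adjusted p = 0.036). Of all genes, 26044 (56.1%) were at 0 in both day 0 libraries, and 110 of these (0.422%) had over 3 counts in both libraries of day 1. Only 26893 of the 46425 genes had a count in any library, so many of the 26044 were at 0 on all days, which lowers that share. SMAD6 is also among the 110, with 15 and 6 counts on day 1. The second high of ID3, on days 7 and 8, was in library A alone, in the 2 libraries with the most ribosomal RNA counts, whose part was not tested.

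ID2 (gene 3398, chromosome 2, 8682056 to 8684461) followed another course from ID1 and ID3. Library A held 257 normalized CPM on day 0, 406 CPM on day 1, 281 CPM on day 2, 178 CPM on day 3, 136 CPM on day 4, 116 CPM on day 5, 117 CPM on day 6, 110 CPM on day 7, 133 CPM on day 8 and 452 CPM on day 12. Library B held 209, 237, 191, 109, 118, 94.2, 91.9, 52.9, 70.3 and 492 CPM. Both were lowest on day 7, and both were highest on day 12. ID2 fell from days 1 to 3 to days 4 to 6 by 0.99 on the log2 scale (SE 0.22, adjusted p = 0.016). Leaving out library A of day 1, 2 or 3 put the adjusted p at 0.052 to 0.057. Day 8 against day 0 had a log2 fold change of -1.18 (SE 0.34, adjusted p = 0.058), with -0.94 within library A and -1.57 within library B, and 7 of 12 alternatives put the adjusted p under 0.05. The fit without library A of day 8, which leaves 1 library on that day, is among these 12 and gave -1.71.

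ID2 then rose from day 8 to day 12 by a log2 fold change of 2.21 (SE 0.40, adjusted p = 3.2e-04), with 1.76 within library A and 2.81 within library B. This rise passed in all 11 alternatives, with a smallest value of 0.83 (adjusted p = 0.040) from limma on log2(TPM + 1), and with each library left out. Against days 4 to 6 the log2 fold change was 2.08 (SE 0.29, adjusted p = 1.8e-05) in normalized CPM but 0.20 (adjusted p = 0.52) with limma on log2(TPM + 1). In TPM, library A went from 153 on day 8 to 241 on day 12 and library B from 97.6 to 199, both still below the 478 and 411 TPM of day 0. The antisense gene ID2-AS1 had 12 to 305 counts a library against 2738 to 32101 for ID2, and the pseudogene ID2B 2 to 35. The kit marks strand, but the strand setting of the counting was not stated.

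**Figure D2:**
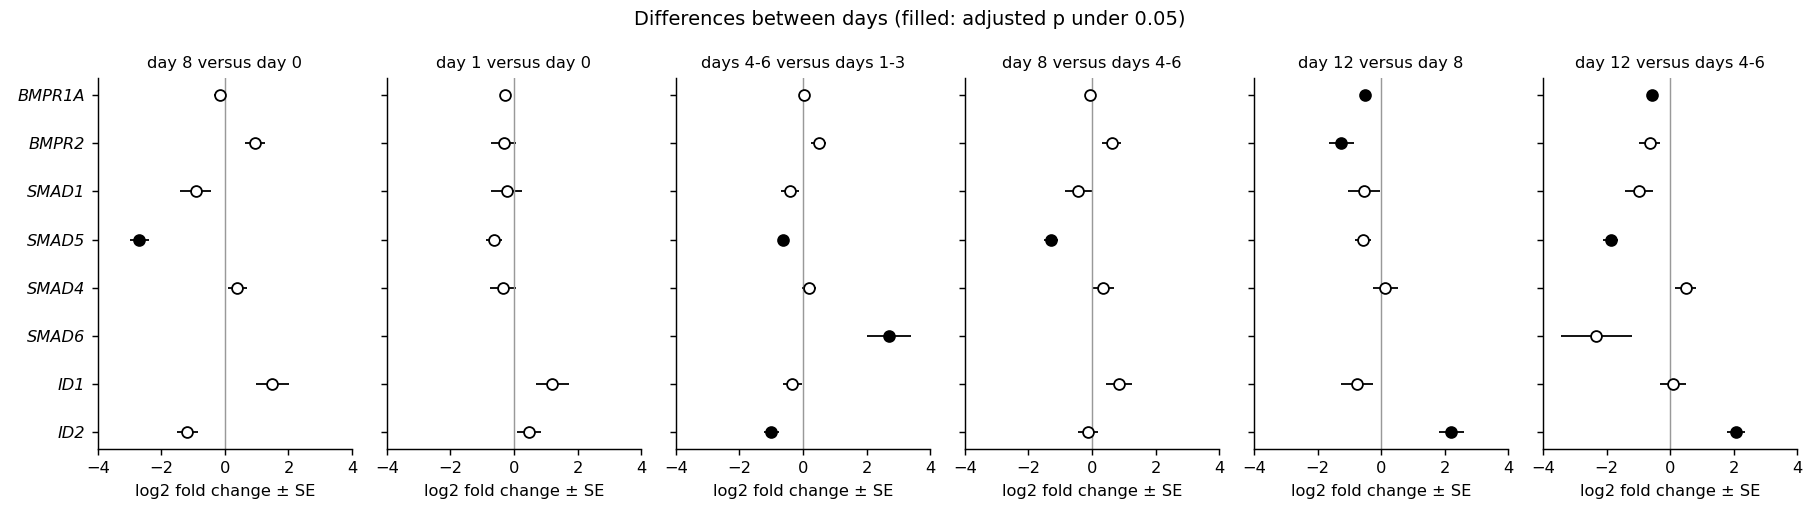
Log2 fold change with its standard error (horizontal bars) of 8 genes in 6 comparisons of days, from edgeR's quasi-likelihood test, with filled points for an adjusted p under 0.05. SMAD5 is to the left in all panels and filled in 4, and ID2 lies left of 0 at days 4 to 6 and right of 0 at day 12. SMAD6 is drawn only where neither day 0 nor day 8 enters.

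Between day 0 and day 8, 1 of the 7 that could be tested other than SMAD6 was called, where 25.1% of all 14829 genes tested were. Between day 0 and day 1, 0 of 9 were called with edgeR's quasi-likelihood test, where 0.393% of 16784 genes were. SMAD5, ID1 and ID3, 3 of the 9, had an unadjusted p under 0.05 there, as 9.16% of all genes did, and DESeq2 called 1 of the 9 and 2.53% of all genes. Between days 1 to 3 and days 4 to 6, 3 of 10 were called, SMAD6 included, against 8.18% of all genes. The SMAD6 call is not independent of its choice for appearing by day 8, so this share is not either. From days 4 to 6 to day 8, 1 of 9 was called against 22.7%. Between day 8 and day 12, 3 of 9 were called against 57.2%, and from days 4 to 6 to day 12, 3 of 10 against 70.7%. The comparisons share libraries, so the counts are not independent of each other.

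The libraries A and B differed in these genes beyond the day. With the set of tables as a block, 7 of the 10 had an adjusted p under 0.05 for B against A, where 32.7% of all genes did. SMAD1, SMAD4 and BMPR2 were higher in B, by log2 differences of 0.72, 0.56 (SE 0.09, adjusted p = 6.0e-04) and 0.49 (SE 0.11, adjusted p = 0.0047). ID1, ID2, ID3 and SMAD6 were lower in B, by -0.71 (SE 0.12, adjusted p = 6.4e-04), -0.50 (SE 0.10, adjusted p = 0.0022), -2.18 (SE 0.57, adjusted p = 0.011) and -1.62. BMPR1A and SMAD5 had differences of 0.035 and -0.066 that did not pass. ID1 and ID2 were higher in A on 9 of 10 days, as 15.8% of all genes were on at least 9 days. What separates the tables other than the days they hold was not stated.

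The genes with the most similar course were listed by Pearson r over the 20 libraries, on log2(normalized CPM + 1), among 9615 genes, as a description. Of all these genes, ID3 was closest to ID1 (r = 0.84), ahead of IER3 (0.83) and LTBP3 (0.78). The r between ID1 and ID3 was 0.87 within library A and 0.61 within library B. ID1 was closest to H2AX (0.88), RPP21 (0.86) and UBE2S (0.86), and ID2 to MBOAT7 (0.96), TXNDC12 (0.96) and STX3 (0.96). SMAD6 was closest to H3C7 (0.91), CRNDE (0.91) and MOSPD3 (0.89), and SMAD7, with its few counts, to RPS13 (0.86), RPS7 (0.80) and RANBP3 (0.77). BMPR2 and ID2 ran against each other (r = -0.84 over the 20 libraries, -0.68 within A and -0.94 within B). The libraries share depth, day and table, so these values are not independent of them.

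The surroundings of the 10 genes in the pathway were read from 80 other genes listed by role. From day 0 to day 8, 48 of them could be tested, of which 7 were higher and 11 lower, or 37.5%, where 11.5% of all genes tested were higher and 13.7% lower, and their median log2 fold change was -0.32 against -0.0066 for all genes. Of the 19 ligands, 7 could be tested and 1 was called. The classical BMP ligands BMP2 and BMP7 were at 0 in all libraries, and BMP4 reached at most 0.0321 TPM, while BMP8B was at 6.10 and 5.99 TPM on day 0. GDF11, a ligand of activin receptors, fell by 4.74 on the log2 scale (SE 0.58, adjusted p = 0.0099), from 2.01 and 4.96 TPM to 0.0640 and 0.107 TPM. GDF15, a stress-induced member of the family, was at 32.5 and 5.38 TPM before differentiation, 503 and 79.2 TPM by day 8 and 5073 and 3951 TPM by day 12, but its log2 fold change from day 0 to day 8 did not pass the test (4.62, SE 1.33, adjusted p = 0.058).

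Of the 14 other receptors and co-receptors, 8 could be tested and 5 were lower on day 8, none higher. Of all 14829 genes tested, 1699 (11.5%) were higher and 2027 (13.7%) lower, against 743 and 4304 with limma on log2(TPM + 1). ENG (endoglin), a co-receptor, fell by 2.37 on the log2 scale (SE 0.48, adjusted p = 0.026), from 109 and 96.1 TPM to 6.45 and 20.9 TPM. TGFBR2, the TGF-beta type II receptor, fell by 2.76 (SE 0.32, adjusted p = 0.0090), NEO1 (neogenin), a binding partner of BMP co-receptors, by 3.43 (SE 0.36, adjusted p = 0.0078) and ACVR2A, an activin and BMP type II receptor, by 1.89 (SE 0.49, adjusted p = 0.046). BMPR1B was at 0 in all libraries, which leaves BMPR1A and ACVR1 (2.50 and 0.766 TPM on day 0) among the type I receptors of BMPs, since ACVRL1 reached at most 0.0869 TPM. Of the 11 antagonists and traps, 3 could be tested and only ERFE was called. ERFE (erythroferrone), which erythroblasts secrete and which traps BMPs, rose by a log2 fold change of 3.72 (SE 0.37, adjusted p = 0.0076), from 24.2 and 16.7 TPM to 201 and 145 TPM.

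Of the 10 other SMADs and cofactors, 8 could be tested, 1 was higher and 2 lower. The repressor SKIL rose by a log2 fold change of 2.02 (SE 0.52, adjusted p = 0.044), and TGIF2, another repressor of SMAD action, fell by 3.44 (SE 0.40, adjusted p = 0.0092). RUNX2, a SMAD partner known from bone, went from 2.04 and 4.13 TPM to 0.00712 and 0 TPM. SMAD9, the third SMAD activated by BMP receptors, reached at most 0.290 TPM. All 12 genes for SMAD turnover and phosphatases were tested. Where 11.5% of all genes tested were higher and 13.7% lower, 4 of the 12 were higher and none lower. They were CTDSP2 (1.42, SE 0.35, adjusted p = 0.040), USP15 (1.03, SE 0.17, adjusted p = 0.018), PPM1A (1.00, SE 0.20, adjusted p = 0.025) and USP9X (0.89, SE 0.23, adjusted p = 0.044), of which CTDSP2 and PPM1A are phosphatases reported to act on SMADs and USP15 and USP9X remove ubiquitin from them.

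Of the 8 other reported BMP targets, 4 could be tested and GATA2, a factor of early progenitors, was lower, by 2.31 on the log2 scale (SE 0.33, adjusted p = 0.013). HAMP (hepcidin), ATOH8 and MSX2 were at 0 in all libraries. Of the 6 partners of ID proteins, TAL1, a basic helix-loop-helix factor of erythroid genes, rose by a log2 fold change of 1.76 (SE 0.28, adjusted p = 0.016), and TCF4 fell by 1.47 (SE 0.37, adjusted p = 0.043) and HES1 fell by 3.80 (SE 0.75, adjusted p = 0.025). TCF3, the E protein, was at 225 and 191 TPM on day 0 and 211 and 210 TPM on day 8.

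**Figure D3:**
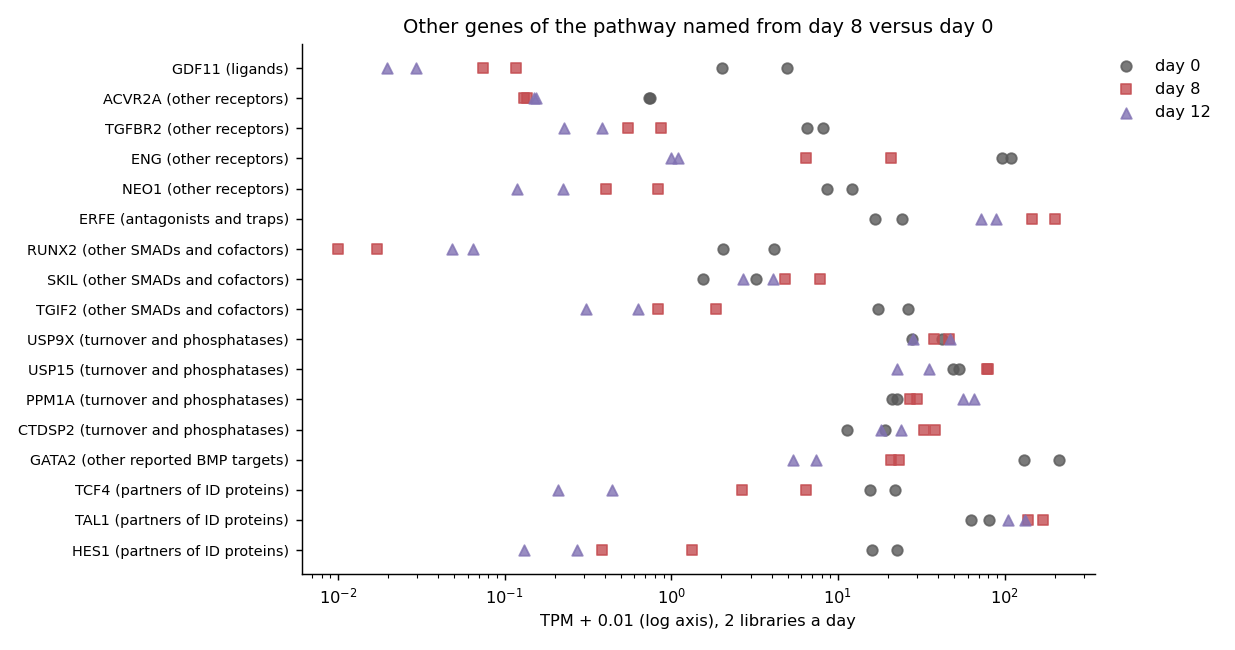
TPM + 0.01 (log axis) of the 17 other pathway genes named by size of change from day 0 to day 8, in the 2 libraries of day 0 (circles), day 8 (squares) and day 12 (triangles). The genes were chosen for no overlap of day 0 and day 8 in counts, and in TPM the days are also apart except for USP9X, with ERFE at 201 and 145 TPM on day 8 and ENG at 0.990 and 1.08 TPM on day 12.

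In the other comparisons the 52 of the 80 genes that could be tested gave 0 calls from day 0 to day 1, 8 from days 1 to 3 to days 4 to 6 (15.4%, against 8.18% of all genes), 16 from days 4 to 6 to day 8 (30.8%, against 22.7%), 34 from day 8 to day 12 (65.4%, against 57.2%) and 44 from days 4 to 6 to day 12 (84.6%, against 70.7%). Of the 12 turnover and phosphatase genes, 9 were higher and 1 lower on day 12 than on day 8 in counts, where 23.8% of all genes were higher and 33.4% lower. With limma on log2(TPM + 1) the split turned, to 1 higher and 6 lower, where 8.38% of all genes were higher and 53.6% lower.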

How the data were processed

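RNA was sequenced from HUDEP-2 cells on 10 days with 2 libraries a day. Per the labels, the libraries were made with a stranded mRNA kit, and the submitters' processing notes name Trimmomatic 0.38, HISAT2 2.1.0, StringTie 2.1.3b and hg38. The authors deposited whole-number read counts per RefSeq transcript without normalization, and TPM, which the authors scaled for length and library to a sum of 1000000. Not used were 23 columns, those of FPKM and an extra day 0 set. Columns carry no replicate number.

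Counts of 170322 transcripts were summed by symbol to 46425 genes. Day 8 and day 0 were compared in their 4 libraries, and other days in 1 fit of 20 libraries, with the quasi-likelihood test of edgeR 4.0.16 in R 4.3.3 (glmQLFit, glmQLFTest, after filterByExpr and TMM) in place of the exact test the study names, and a threshold of 0.05 on the adjusted p. The SE is the size of the log2 fold change over the square root of F. Within-library values use a prior count of 2. The quasi-likelihood test and DESeq2 were tested on simulated data with 200 genes changed 4-fold. For day 8 against day 0, days 4 to 6 against days 1 to 3 and day 12 against day 8, 6.13%, 3.38% and 4.31% of quasi-likelihood calls were false. With DESeq2 these shares were higher, at 8.29%, 11.1% and 9.55%. Alternatives were DESeq2 1.42.0, limma 3.58.1 on log2(TPM + 1) and log2(TPM + 0.1), other normalizations and filters, a block for the set of tables, fewer or more libraries in a fit, and leaving out libraries singly. Leaving out library A of days 7 and 8 was added after seeing the data.

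The members, pathway lists and marker lists were chosen with earlier results of these data known. Named were all members, the 3 genes of highest r with SMAD6, SMAD7 and each ID gene (at least 10 CPM in at least 2 libraries), and up to 4 genes a list with the largest change among those with an adjusted p under 0.05 from day 0 to day 8, at least 10 counts on average and no overlap between the days. ACVR1B passed as well but was the fifth of its list. Genes given as absent or low, TCF3, ACVR1, BMP8B and GDF15 were named after their values were seen. Promoters came from RefSeq (GRCh38.p14), with all 10 members matched.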

Additional observations from a re-analysis of the deposited data

How the results depend on the processing

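No paired analysis was possible because the deposited columns carry no replicate numbers. The block for the set of tables joins the libraries by set, A or B, which is not a pairing by replicate number. It takes all tables of set A as 1 level. The number of the 10 genes called moved with the test. Between day 0 and day 8 it was 1, against 4 with DESeq2, the exact test or all 20 libraries, 5 with the set of tables as a block, 2 with limma on either TPM scale, 2 without library A of days 7 and 8, and 0 to 3 leaving out 1 library. Between day 0 and day 1 it was 0, against 1 with DESeq2 and 2 with the block. Between days 1 to 3 and days 4 to 6 it was 3, and 0 to 3 leaving out 1 library. Between days 4 to 6 and day 8 it was 1, against 2 with limma on log2(TPM + 1), 3 with the block, 0 without library A of days 7 and 8, and 0 to 2 leaving out 1 library. Between day 8 and day 12 it was 3, against 7 with limma on either scale and 1 to 4 leaving out 1 library. Between days 4 to 6 and day 12 it was 3, against 6 and 7 with limma on log2(TPM + 1) and log2(TPM + 0.1), 6 with no filter beyond 1 count, 7 with the block, 5 with just the compared days, and 3 to 4 leaving out 1 library. The cause was not tested, except that leaving out libraries leaves fewer samples.

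With limma on log2(TPM + 1) and log2(TPM + 0.1), SMAD4 turned to -0.17 and -0.18 (day 8 against 0), -0.046 and -0.046 (day 8 against 4 to 6), -1.21 and -1.30 (day 12 against 8) and -1.25 and -1.34 (day 12 against 4 to 6). ID1 turned to -1.64 and -1.75 and ID3 to -0.26 and -0.49 (day 12 against 4 to 6), and BMPR1A to -0.043 and -0.048 (days 4 to 6 against 1 to 3). Without library A of days 7 and 8, SMAD1 turned to 0.032 and ID3 to -1.62 (day 8 against 4 to 6), and SMAD4 to -0.032 and ID3 to 2.56 (day 12 against 8). The block turned ID3 to 0.65 (day 12 against 8). Leaving out 1 library, uncalled values crossed 0 for BMPR2 (-0.82 to 0.059), SMAD1 (-0.66 to 0.29) and SMAD4 (-0.76 to 0.085) on day 1 against 0, BMPR1A (-0.041 to 0.092) on days 4 to 6 against 1 to 3, BMPR1A (-0.13 to 0.0038), SMAD1 (-1.11 to 0.027), ID2 (-0.67 to 0.25) and ID3 (-1.63 to 2.56) on day 8 against 4 to 6, SMAD1 (-1.02 to 0.11), SMAD4 (-0.029 to 0.28) and ID3 (-1.62 to 2.57) on day 12 against 8, and ID1 (-0.070 to 0.28) and ID3 (-0.060 to 1.94) on day 12 against 4 to 6. No value called in the main fits (without any alternative setting) turned. SMAD4 on day 12 against days 4 to 6 was called in both directions by alternatives, at 0.59 with the block and -1.25 with limma on log2(TPM + 1).

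Over all genes, calls between day 0 and day 1 were 66, against 425 with DESeq2, 442 with the block, 299 and 157 with limma and 0 with just these days (1227 at an unadjusted p under 0.05). Between days 1 to 3 and days 4 to 6 they were 1373, against 2365, 3124 and, with just these days, 2091. Between days 4 to 6 and day 8 they were 3816, against 6104 with the block, 5908 and 5872 with limma, 2418 with just these days and 553 without library A of days 7 and 8. Between day 0 and day 8 they were 3726, against 6224 with all libraries, 364 without library A of day 0 and 492 without library B. The split moved with the scale: 1699 genes were higher and 2027 lower on day 8 than day 0, against 743 and 4304 with limma on log2(TPM + 1), and 3997 and 5611 on day 12 than day 8, against 1407 and 8997. Depth limits SMAD6, SMAD7 and ID3 most, which had 0 counts in some libraries.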
